A study of Homo sapiens with 19 samples.

Results

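2 siRNAs with the same target, siINO80#1 and siINO80#2, were compared directly in HepG2 cells, a human liver cancer line with hepatocyte features, without a control siRNA on either side. The comparison takes 6 of the 19 mRNA-seq libraries of the series: the 3 siINO80#2 libraries and the 3 siINO80#1 libraries, replicates A, B and C of each, chosen by their labels. They belong to an experiment of 9 libraries whose other 3 received NTG, the control siRNA. All 9 were transfected with 50 nM siRNA in RNAiMAX and harvested 72 h later, with no drug, so that by these labels the groups differ by siRNA alone. The other 10 libraries come from a second experiment with MCRS1 siRNA (siMCRS1) or NTG in DMSO or EPZ-6438, which blocks EZH2 from methylating H3K27. There cells were given DMSO or 1 µM EPZ-6438 for 3 days, then transfected with 50 nM siRNA and harvested 72 h later. From that experiment the 5 libraries in DMSO are set beside this comparison once, through a fit that also held those in EPZ-6438. The comparison addresses which functions differ between cells given one or the other siRNA to INO80.

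INO80 is the ATPase of the INO80 complex, a chromatin remodeler that slides nucleosomes and exchanges histone variants. It is known for roles in transcription, in the progression of replication forks and in the repair of double strand breaks. A small interfering RNA is loaded into an Argonaute protein and guides it to cleave the perfectly matched mRNA. The same guide also represses other mRNAs that match its seed, the first bases after its 5′ end, so 2 siRNAs to 1 gene share their intended target but not their other targets. Hepatocytes secrete most plasma proteins, including albumin, apolipoproteins and clotting factors, and HepG2 cells keep much of this program while they divide.

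Values are normalized counts, in which each library's gene counts were scaled by a single size factor. Differences are given on the log2(value + 1) scale as siINO80#2 minus siINO80#1, so a negative value means less mRNA with siINO80#2. The test was limma fitted to all 9 libraries for the 14034 genes whose mean reached 10 normalized counts, and a gene is called higher or lower at an adjusted p under 0.05. Where 3 values are listed they are replicates A, B and C in that order, and NTG is given as mean ± SD (n = 3) for orientation. The 6 libraries held 17093574 to 25369547 reads, and 3 reads, used as the limit of detection, were worth 2.30 to 3.58 normalized counts in the 9 libraries, a limit that covers counting error only. The labels do not say that replicates came from separate cultures, so the p-values measure the spread between these libraries, which may be technical.

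1 library stood apart. In siINO80#2 replicate C the mitochondrially encoded mRNAs took 17.7% of the total, against 8.05% to 9.21% in the other 5 siINO80 libraries. Its counts differed from those of the other siINO80#2 libraries by a chi-square per degree of freedom of 84.3 and 121, against 18.7 between replicates A and B of siINO80#2 and 9.45 to 13.2 between the other replicate pairs. Counts of the described lists are therefore also given without it. The defining markers of hepatocytes were abundant in all 6 libraries, with ALB at 109073 to 229644 normalized counts and HNF4A at 2701 to 4329. Among markers of other cells, CD3E, CD2 and MS4A1 of lymphocytes had no reads in the 6 libraries. The filter on low values was passed by 5 of 15 blood and immune markers, 4 of 11 endothelial and 7 of 11 fibroblast markers. Of these CD3D and LYVE1 (adjusted p 0.13 without siINO80#1 replicate A) were called higher with siINO80#2 and COL1A1 and PDGFRB (adjusted p 0.13 without siINO80#1 replicate C) lower. The summed blood markers ranged from 49314 to 56353 with siINO80#2 and from 39293 to 45362 with siINO80#1, almost all of it LYZ, the summed endothelial markers from 2227 to 2954 and from 2128 to 2664, and the summed fibroblast markers from 557 to 971 and from 726 to 906, and their part in the results was not tested. In such bulk RNA, fewer cells that express a gene and less of its mRNA per cell cannot be told apart.

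INO80 mRNA (chromosome 15, 40978880 to 41116280, GRCh38.p14) was at 439.8, 456 and 483 normalized counts with siINO80#2 and at 576, 639 and 609 with siINO80#1. Every siINO80#2 library was below every siINO80#1 library, and all 6 were below the NTG mean of 1264 ± 82.2. The difference was -0.40 (SE 0.08, limma adjusted p = 0.0058), so that siINO80#1 libraries held 1.32 times as much, and it was -0.44 without siINO80#2 replicate C (adjusted p = 0.0046). INO80 overlaps antisense RNAs, including INO80-AS1, and it is not stated if strand was used in counting, so the part of antisense reads in this value was not tested. The groups thus carry unequal amounts of the target mRNA, and that inequality cannot be told apart from the identity of the siRNA in the results that follow.

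Of the 16 subunits of the INO80 complex on the list, 1 more was called. INO80B was at 264, 221 and 209 with siINO80#2 and 154, 169.5 and 157 with siINO80#1 (NTG 191 ± 12.5), without overlap, a difference of 0.52 (SE 0.12, adjusted p = 0.011). Its reads are shared with the INO80B-WBP1 readthrough transcript and its value is uncertain. The other 14 were not called, among them the ATPases RUVBL1 (0.21) and RUVBL2 (-0.04), MCRS1 (-0.08), ACTR5 (-0.03) and ACTR8 (0.01) of the nucleosome-binding modules, and YY1 (-0.16). INO80E was at 0.21 (adjusted p = 0.066). It passed the threshold in edgeR and in 3 more of the alternatives (adjusted p 0.038 to 0.048), and RUVBL1 passed in 1 (adjusted p = 0.033).

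Between the siRNAs 3096 of 14034 genes were called (22.1%), 1330 higher (9.48%) and 1766 lower (12.6%) with siINO80#2. Without siINO80#2 replicate C 1282 were higher (9.13%) and 1667 lower (11.9%). The count fell more when a siINO80#1 library was left out: without siINO80#1 replicate A it was 1948 (828 higher, 1120 lower), without replicate C 2040 (878 and 1162) and without replicate B 2136, of them 855 higher. Without siINO80#2 replicate A 881 were higher. Most differences were modest, with a median size of 0.51 among the higher and 0.50 among the lower genes, and 170 higher and 126 lower genes reached a log2 difference of 1. The 3 libraries of one siRNA lay wholly above those of the other for 2600 genes (18.5%) and wholly below for 2844 (20.3%).

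**Figure D1:**
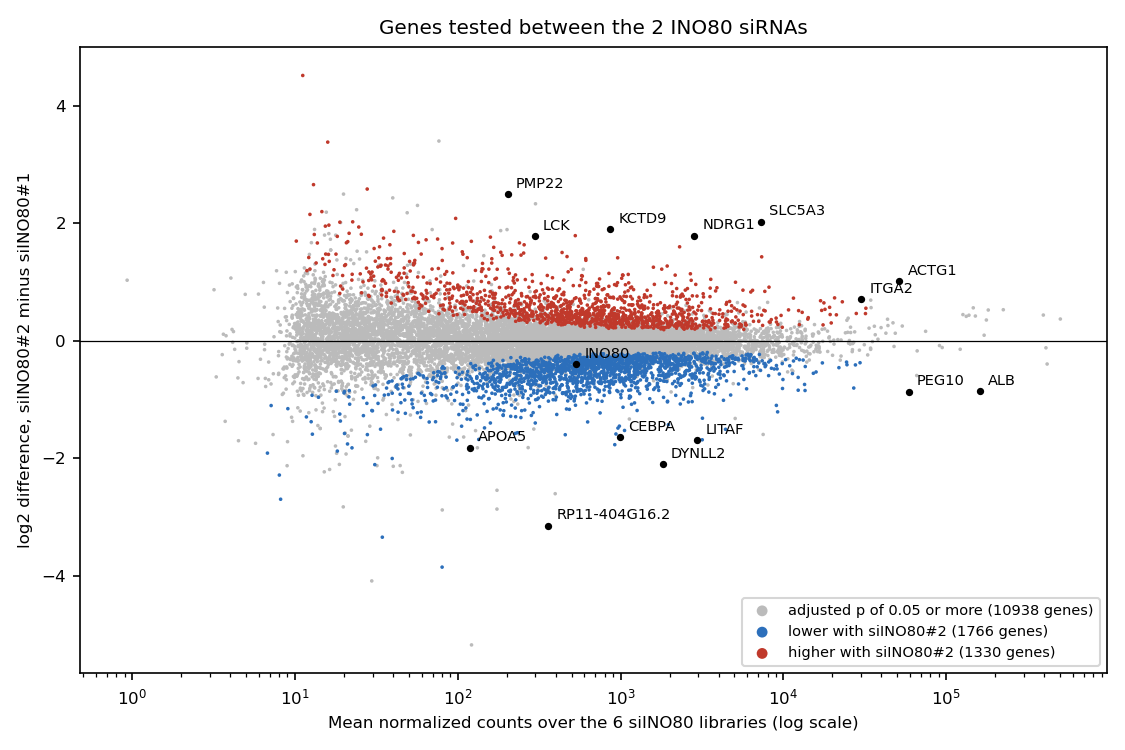
The mean of the 6 libraries in normalized counts (log axis) is plotted against the log2 difference, siINO80#2 minus siINO80#1, for the 14034 genes tested, coloured by call. The 1330 higher and 1766 lower genes had median levels of 599 and 673 normalized counts, above the 368 of the genes not called. The median log2 difference over all genes was -0.01.

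The largest differences in each direction are given among called genes whose mean reached 50 normalized counts and whose groups did not overlap. Upward, PMP22, a protein of peripheral myelin and of cell junctions, was at 312, 278 and 447 with siINO80#2 and at 56.04, 52.5 and 69.96 with siINO80#1, around an NTG mean of 167 ± 23.7. All siINO80#2 libraries were above NTG and all siINO80#1 libraries below it, and the difference was 2.50 (SE 0.19, adjusted p = 5.0e-05). SLC5A3, the sodium-coupled importer of the osmolyte myo-inositol, was at 12257, 11148 and 11740.1 and 2975, 2483 and 3205 (NTG 1877 ± 70.2), a difference of 2.03 (SE 0.09, adjusted p = 1.0e-06). Both groups lay above the NTG mean. SLC5A3 sits inside MRPS6 on the same strand, and MRPS6, a mitochondrial ribosomal protein, was itself higher by 0.94, so the counts of this pair are uncertain.

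KCTD9, a BTB domain protein, was at 1375, 1307 and 1421 with siINO80#2 and 395, 347 and 355 with siINO80#1, and NTG was at 1371 ± 36.8. Here siINO80#2 lay at the NTG level and siINO80#1 far under it (difference 1.90, SE 0.07, adjusted p = 9.7e-07). ZNF25, a zinc finger protein, had the same arrangement at 122, 119 and 107, 35.8, 34.7 and 32.4 and NTG 90.8 ± 7.15. LCK, a Src-family kinase best known from T cells, was instead at 504, 403 and 477 with siINO80#2 and 118, 142 and 139.9 with siINO80#1 over an NTG mean of only 24.6 ± 3.82. Both siRNA groups were above NTG and apart from each other by 1.78 (SE 0.15, adjusted p = 8.7e-05). NDRG1, a hypoxia-induced gene, was at 4238, 4549.8 and 4424 and 1313, 1165 and 1349 (NTG 2261 ± 679.9), with siINO80#2 above and siINO80#1 below the NTG mean. The rest of the 15 largest differences upward were 2.08 for PLCXD3, 1.79 for the T cell receptor component CD3D, 1.79 for the diacylglycerol kinase DGKG, which overlaps ETV5 on the same strand, 1.76 for the microtubule protein MAP1A, 1.72 for ZNF420, 1.69 for KIAA1549L, 1.67 for the retinoic acid carrier CRABP2, 1.67 for ZNF385A and 1.66 for the ephrin receptor EPHB1.

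DYNLL2, a light chain of the dynein motor, was at 715, 757 and 599 with siINO80#2 and 2892, 3106 and 2816 with siINO80#1, while NTG was at 2674 ± 107. The siINO80#2 libraries were low and the siINO80#1 libraries were near NTG, with a difference of -2.09 (SE 0.09, adjusted p = 1.0e-06). AKIRIN1, a nuclear protein, was similarly at 1443, 1682 and 1402 against 5009, 4777 and 4732 (NTG 3793 ± 60.2, difference -1.68), and LITAF, a protein of late endosomes and lysosomes, at 1384, 1266 and 1529 against 4553, 4253 and 4688 (NTG 5141 ± 399, difference -1.69). In all 3 genes siINO80#2 stood below both other groups. DRAM1, a p53-induced lysosomal protein, was at 416, 469 and 369 and 1407, 1301 and 1566 with NTG at 459 ± 52.7. There the siINO80#2 libraries were near NTG and the siINO80#1 libraries above it, for a difference of -1.77.

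4 more of the 15 largest differences downward are liver genes described further on, APOA5, CEBPA, SULT2A1 and GPAM. The others were -1.69 for the trypsin inhibitor SPINK1, -1.68 for KANK4, -1.60 for the diacylglycerol kinase DGKK, -1.58 for the ubiquitin-like modifier UBD, which overlaps GABBR1 on the same strand, -1.56 for the homeobox factor MIXL1, and -3.15 and -3.85 for RP11-404G16.2 and RP11-577H5.5, which have a clone name only. RP11-577H5.5 lost its call in 8 of the 9 fits that left out 1 library (adjusted p 0.13 without siINO80#1 replicate B) and in edgeR and DESeq2.

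**Figure D2:**
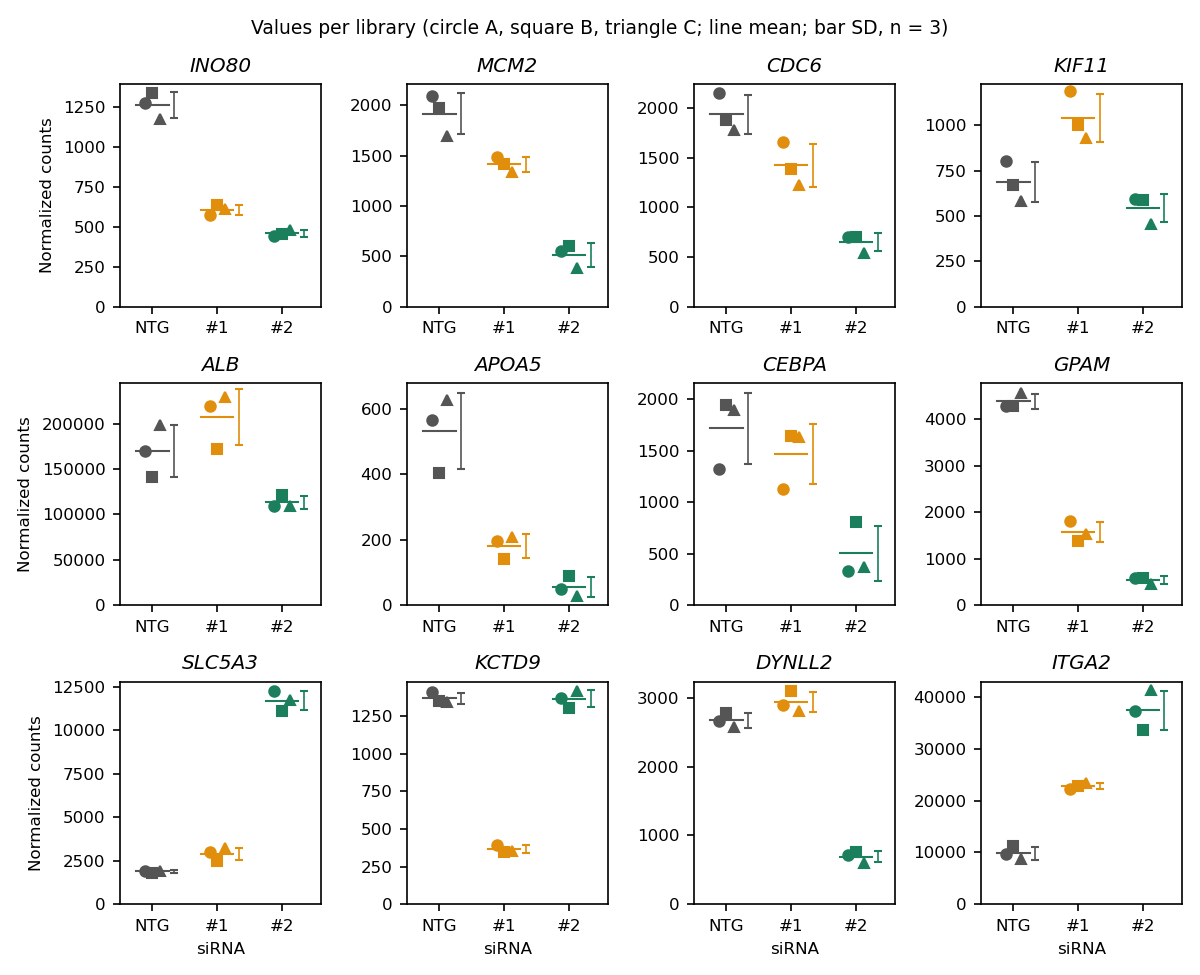
Normalized counts of 12 genes in each NTG, siINO80#1 and siINO80#2 library (circle A, square B, triangle C), with the mean as a line and the SD as a bar, each axis starting at 0. The siINO80#2 and siINO80#1 libraries do not overlap in any of the 12 genes, which was a condition for naming most of them. The place of NTG differs from gene to gene, at the siINO80#2 level for KCTD9 and near the siINO80#1 level for DYNLL2.

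In normalized counts rather than ratios, and again among called genes whose groups did not overlap, the largest rise was that of ACTG1, cytoplasmic gamma actin, at 70515, 66557 and 69685 with siINO80#2 and 32202, 35486 and 34859 with siINO80#1 (NTG 43399.8 ± 4277). The siINO80#2 libraries were about 2.02 times as high (1.01, adjusted p = 0.00019), while ACTB, the near-identical beta actin and an INO80 complex subunit, was at -0.17 and not called. ITGA2, the collagen receptor subunit alpha 2, was at 37422, 33650.2 and 41335 and 22252, 22849 and 23456 (NTG 9866 ± 1267). Both siRNA groups were above NTG, and siINO80#2 was higher than siINO80#1 by 0.71. The chaperone HSPA8 (0.55, adjusted p 0.051 without siINO80#1 replicate B), the chromatin protein HMGA1 (0.66, adjusted p 0.16 without siINO80#1 replicate A) and the keratin KRT19 (0.73) completed the 5 largest. The 5 largest falls among such genes were those of ALB, the imprinted retrotransposon-derived gene PEG10 (-0.87), the plasma protein APOH (-0.85), the oncofetal proteoglycan GPC3 (-0.41) and the secreted protein RELN (-0.37, adjusted p 0.12 without siINO80#1 replicate C). Some genes that were not called had larger differences of means, among them APOB at -104505 downward, against -93733 for ALB, and the mitochondrially encoded MT-CO1 at 159000.0 upward, against 34736 for ACTG1.

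Of the lists, the pair with the largest shares of called members belonged to the cell cycle. Of 40 genes of DNA replication and S phase, 37 were lower with siINO80#2, and of 36 genes of mitosis and the spindle, 33 were lower, with a median of -0.69 and of -0.69 against -0.01 over all genes. Without siINO80#2 replicate C 35 and 34 were lower. Leaving out 1 library at a time gave 30 to 38 replication and 27 to 34 mitosis genes. The summed normalized counts of the replication genes were 28744, 28544 and 21129 with siINO80#2 and 45989.8, 42294 and 39236 with siINO80#1, and those of the mitosis genes 35336, 35067 and 31916 and 57489, 49746 and 49163. Every siINO80#2 library was below every siINO80#1 library in both sums, and in NTG the sums were 59507, 56077 and 50357 for replication and 67544, 59072 and 54814 for mitosis. Thus siINO80#1 was below NTG in replication genes but overlapped NTG in mitosis genes.

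MCM2, a subunit of the MCM2-7 helicase that opens DNA at origins, was at 555, 603 and 382 with siINO80#2 and 1492, 1413 and 1338 with siINO80#1 (NTG 1918 ± 202). All siINO80#2 libraries lay far below the others, replicate C lowest, and the difference was -1.49 (SE 0.15, adjusted p = 0.00019). CDC6, which loads that helicase onto origins, was at 702, 702 and 542 and 1654, 1386 and 1228 (NTG 1937 ± 197), a difference of -1.13 (SE 0.13, adjusted p = 0.00040), and the helicase subunit MCM5 differed by -1.23 (adjusted p = 0.00018). The 3 replication genes that were not called were the clamp loader subunit RFC2 (-0.42) and the cyclins CCNE1 (-0.16) and CCNE2 (0.60, adjusted p = 0.087), which start S phase with CDK2. These 3, like CDK1 and MKI67 below, are named because of their values or their part in the promoters shown.

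KIF11, the motor that separates the spindle poles, was at 595, 587 and 457 with siINO80#2 and 1189, 1000.4 and 929.6 with siINO80#1, and NTG was at 687 ± 109.8. Here siINO80#2 was below the NTG mean and siINO80#1 above it, with a difference of -0.93 (SE 0.14, adjusted p = 0.0016). CDC25C, the phosphatase that activates CDK1 at entry into mitosis, differed by -1.07 (adjusted p = 0.0010), AURKB, the kinase of the chromosomal passenger complex, by -0.93 (adjusted p = 0.0026) and CDK1 itself by -0.79 (adjusted p = 0.020). The mitosis genes not called were the checkpoint protein MAD2L1 (-0.58), the proliferation marker MKI67 (-0.34) and the securin PTTG1 (-0.19).

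**Figure D3:**
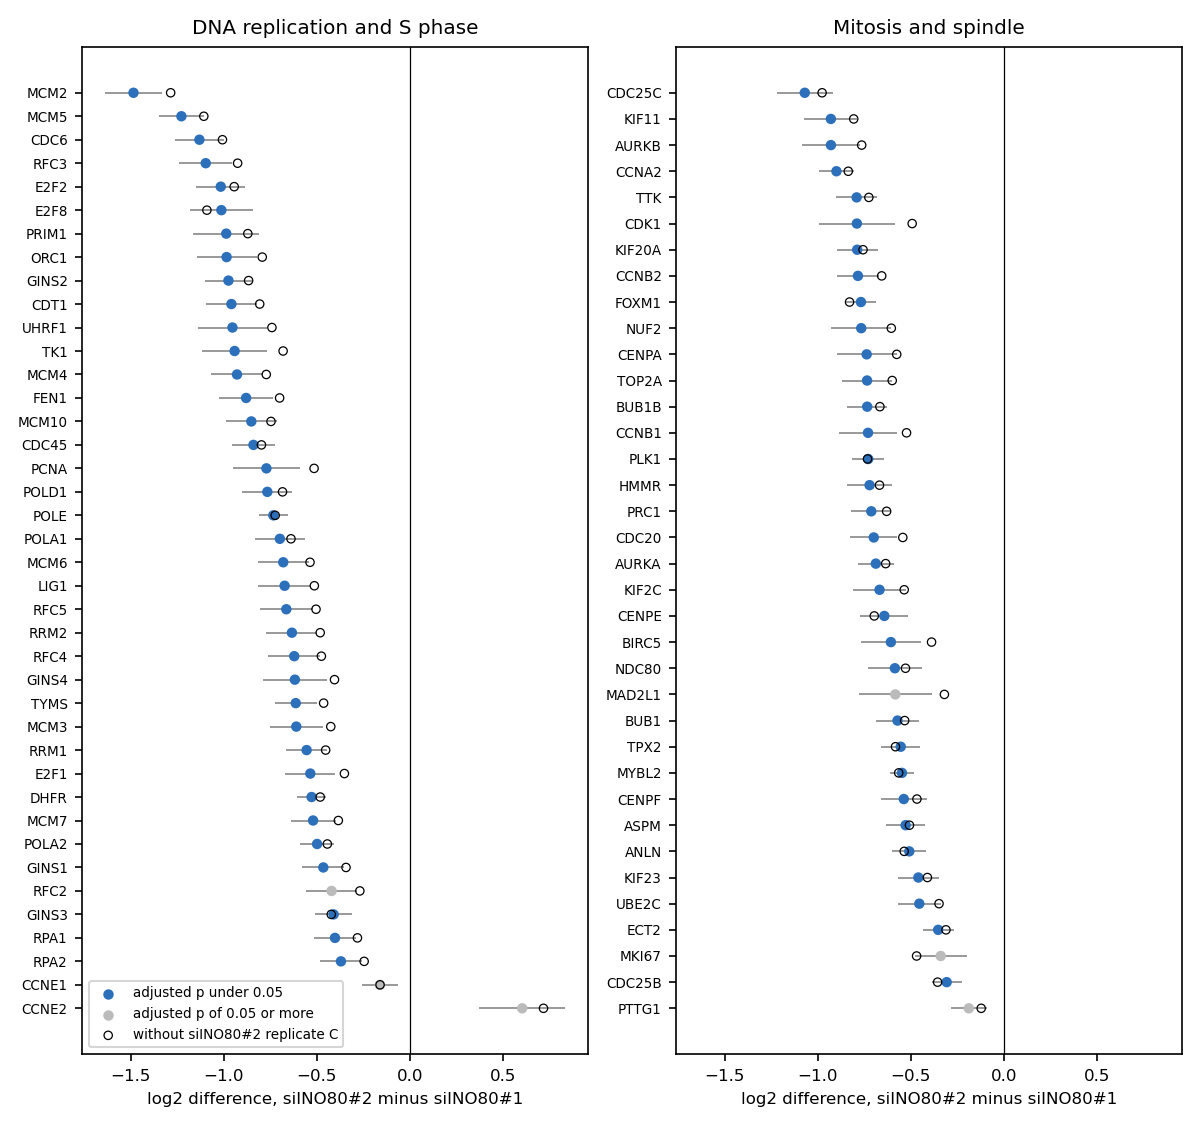
The log2 difference of each of the 40 replication and 36 mitosis genes, siINO80#2 minus siINO80#1, with its SE as a bar and the value without siINO80#2 replicate C as an open circle. The points lie below 0 apart from that of CCNE2, and the median is -0.69 in replication and -0.69 in mitosis.

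The promoters of these genes are shown for MCM2, CDC6 and CDK1. Replication and mitosis genes are known to be controlled by E2F factors and by the DREAM and MuvB complexes through short promoter elements. The windows run from 250 bases before to 50 bases after a RefSeq start site on GRCh38.p14, all on the plus strand, at chr3:127598161-127598460, chr17:40287629-40287928 and chr10:60778228-60778527. Capitals mark each match, on either strand, to TTTNGCGC, the letters of an E2F-type site, or TTTGAA, those of a CHR-type element.
MCM2: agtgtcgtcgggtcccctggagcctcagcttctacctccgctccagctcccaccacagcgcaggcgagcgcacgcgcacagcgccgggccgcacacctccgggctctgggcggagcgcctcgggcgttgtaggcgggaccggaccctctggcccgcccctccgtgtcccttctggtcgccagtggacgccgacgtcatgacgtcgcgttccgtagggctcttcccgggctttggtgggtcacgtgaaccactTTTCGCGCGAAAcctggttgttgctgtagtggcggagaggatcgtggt
CDC6: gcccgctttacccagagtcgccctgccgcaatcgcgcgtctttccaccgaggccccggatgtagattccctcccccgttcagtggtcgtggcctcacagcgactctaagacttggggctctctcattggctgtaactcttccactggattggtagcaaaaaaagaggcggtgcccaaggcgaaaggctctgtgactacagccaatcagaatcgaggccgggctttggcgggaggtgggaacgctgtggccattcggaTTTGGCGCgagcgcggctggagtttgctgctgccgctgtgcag
CDK1: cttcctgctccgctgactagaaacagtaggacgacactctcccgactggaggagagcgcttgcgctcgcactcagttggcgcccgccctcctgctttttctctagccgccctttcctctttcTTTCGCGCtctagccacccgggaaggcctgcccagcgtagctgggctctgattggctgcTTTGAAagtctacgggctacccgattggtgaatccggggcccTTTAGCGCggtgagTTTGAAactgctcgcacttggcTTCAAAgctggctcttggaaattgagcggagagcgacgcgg
The MCM2 window holds TTTNGCGC on both strands in matches that overlap, starting 2 and 6 bases after the start site, and CDC6 holds it 7 bases after. CDK1 has a second window with matches, at chr10:60778081-60778380 and overlapping the first, and the one with more matches is shown. That window holds 2 matches to TTTNGCGC, 128 and 27 bases before the start site, and 3 to TTTGAA, and the other 1 to each. TTTNGCGC was in 14 of the 33 replication genes with a window (42.4%) and in 1.79% of all 35116 windows, and TTTGAA was in 20 of 30 mitosis genes (66.7%) and in 15.2% of all windows. A gene counts if any of its windows holds the letters. Counted in the same way, TTTNGCGC was in 2.17% and TTTGAA in 18.2% of all genes with a window, in 3.53% and 14.2% of the tested genes with one (10717 of 14034), and in 4.99% and 19.04% of the genes called lower with one (1423 of 1766). These shares are given with no test, and a match is a description of the sequence and not a measured site.

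Genes of homologous recombination and repair were also lower in part. Of 31, 14 were lower and 2 higher with siINO80#2 (median -0.40), 13 and 2 without siINO80#2 replicate C, and 9 were lower without siINO80#1 replicate A. BARD1, the partner of BRCA1, differed by -1.26, the helicase BRIP1 by -0.88 and the recombination helicase RAD54L by -0.87. The checkpoint kinase ATR (0.56) and the resection factor RBBP8 (0.43, adjusted p 0.055 without siINO80#1 replicate C) were higher. Of 19 histone genes 4 were lower and 3 higher (median -0.22), 4 and 1 without siINO80#2 replicate C. The linker histone HIST1H1C (-0.91) and H2AFX (-0.58), the variant phosphorylated at DNA breaks, were lower, as was H2AFV (-0.35, adjusted p 0.11 without siINO80#1 replicate A), an H2A.Z variant of the kind the INO80 complex exchanges. The histone count was 2 without siINO80#1 replicate A or B and 7 without siINO80#2 replicate B, and histone genes have near-identical copies, so it is uncertain. CDKN1A, an inhibitor of the cyclin-dependent kinases and a p53 target, was higher by 0.56. It was the only 1 of 24 p53 targets called higher, and 1 was lower (4.17% each, median 0.08).

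The second broad difference was in hepatocyte functions, with part of the genes lower under siINO80#2. Sums of normalized counts lay wholly lower for hepatocyte factors, albumin and apolipoproteins, cholesterol, fatty acid oxidation, gluconeogenesis, the urea cycle, P450 and conjugation. They overlapped for coagulation (75449 to 87672 against 78692 to 96333 with siINO80#1) and complement (167357 to 199239 against 170232 to 226774). The sums of lipogenesis and of hepatic transporters overlapped too. Of 22 hepatocyte transcription factors 9 were lower (10 lower and 1 higher without siINO80#2 replicate C, median -0.43). CEBPA, which holds hepatocytes in their differentiated state, was at 331, 810.3 and 370.3 with siINO80#2 and 1127, 1644 and 1634 with siINO80#1 (NTG 1719.8 ± 344). The groups did not overlap, as the rule for the largest differences required, although siINO80#2 replicate B was far above the other siINO80#2 libraries. The difference was -1.64 (SE 0.30, adjusted p = 0.0038). The bile acid receptor NR1H4 differed by -1.22 and HNF4A, the master regulator of the hepatocyte program, named for its place in this program and not for the size of its difference, by -0.58 (adjusted p = 0.00064).

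Of 15 genes of the albumin family and apolipoproteins 8 were lower, also without siINO80#2 replicate C (median -0.65). ALB, albumin itself, was at 109073, 121826 and 109582 with siINO80#2 and 219623, 172414 and 229644 with siINO80#1. NTG lay at 169445 ± 28671, between the groups, which did not overlap, as the rule for the largest falls required. The difference was -0.86 (SE 0.17, adjusted p = 0.0059). APOA5, which raises the clearance of plasma triglyceride, was at 49.4, 88.8 and 28.3 and 197, 141 and 207 (NTG 531 ± 115), both groups below NTG, with a difference of -1.82 (SE 0.34, adjusted p = 0.0043). APOC3, an inhibitor of lipoprotein lipase, differed by -1.29 and APOF by -1.02. APOB, the scaffold protein of low density lipoprotein and not called, was at 261092, 391058 and 441099 and 485977, 428116 and 492673 (-0.40, adjusted p = 0.25), with overlapping groups.

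The ALB promoter (chr4:73404037-73404336, plus strand, GRCh38.p14, RefSeq) is shown as that of the largest fall in normalized counts among called genes, with a match to GTTAAT, a short element known from promoters of liver genes, in capitals 61 bases before the start site.
ALB: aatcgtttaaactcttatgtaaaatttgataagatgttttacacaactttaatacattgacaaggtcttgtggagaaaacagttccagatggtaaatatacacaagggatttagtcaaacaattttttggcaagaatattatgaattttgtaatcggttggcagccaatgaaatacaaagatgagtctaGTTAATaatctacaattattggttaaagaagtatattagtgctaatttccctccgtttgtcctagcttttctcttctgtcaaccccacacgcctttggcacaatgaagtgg
GTTAAT was in 6 of the 19 coagulation genes with a window (31.6%) and in 6.88% of all windows. Counted per gene, it was in 8.27% of all genes with a window, in 5.94% of tested genes with one and in 7.03% of genes called lower with one. TTTGAA, the letters of the CHR-type element, was in 7 of the same 19 coagulation genes (36.8%), against 14.2% of tested genes with a window. These shares were not tested. Of the albumin and apolipoprotein genes 11 of 15 had a window and of the complement genes 21 of 31, in each less than the 80% of members set as the minimum for such a share.

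The liver also makes most clotting and complement proteins. Of 22 genes of coagulation and fibrinolysis 10 were lower and 1 higher (median -0.34, 11 and 1 without siINO80#2 replicate C), and of 31 complement and acute phase genes 10 were lower and 1 higher (median -0.33), with 9 lower without siINO80#2 replicate C. The complement count was 4 without siINO80#1 replicate A, 5 without its replicate C and 6 without siINO80#2 replicate A. The anticoagulant protease precursor PROC differed by -1.01, coagulation factor VII (F7) by -0.94 (adjusted p 0.058 without siINO80#1 replicate A) and kininogen KNG1 by -1.08 (adjusted p 0.14 without siINO80#1 replicate A), while TFPI, the inhibitor of the tissue factor pathway, was higher by 0.48. Haptoglobin HP differed by -0.84 and complement C5 by -0.74. The haem carrier HPX was at -0.74 (adjusted p 0.11 without siINO80#1 replicate C) and the lectin pathway protease MASP1 at 0.78 (adjusted p 0.13 without siINO80#1 replicate B), and both calls were lost without siINO80#2 replicate C too.

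Genes of lipid metabolism were lower in several of its branches. Of 26 genes of cholesterol synthesis and uptake 11 were lower and 1 higher (median -0.35, 9 and 1 without siINO80#2 replicate C), a count that was 5 without siINO80#1 replicate A, 4 without its replicate C, 7 without siINO80#2 replicate A and 20 without its replicate B. The gut and liver cholesterol importer NPC1L1 differed by -0.64 and the sterol reductase TM7SF2 by -0.60 (adjusted p 0.064 without siINO80#1 replicate C). SC5D, an enzyme of the last steps of cholesterol synthesis, went the other way, at 3307, 3279 and 3805 with siINO80#2 and 1285, 1031 and 1119 with siINO80#1 (NTG 3943 ± 262). The siINO80#1 libraries were the ones away from NTG, and the difference was 1.60 (SE 0.10, adjusted p = 8.4e-06).

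Of 24 genes of lipogenesis and lipid storage 7 were lower (median -0.22, 5 without siINO80#2 replicate C, 4 without siINO80#1 replicate A, 3 without its replicate C and 4 without siINO80#2 replicate A). GPAM, the first enzyme of triglyceride synthesis, was at 599, 579.7 and 456 with siINO80#2, 1806, 1377 and 1528 with siINO80#1 and 4387 ± 161 with NTG. The 3 groups stood in steps without overlap, and the difference between the siRNAs was -1.53 (SE 0.12, adjusted p = 5.0e-05). The elongase ELOVL6 differed by -0.74 and the desaturase FADS1 by -0.60. In fatty acid oxidation and ketogenesis 8 of 22 were lower and 1 higher (median -0.26, 8 and 1 without siINO80#2 replicate C, 5 lower without siINO80#1 replicate A), led by ACSL4 (-0.84), which activates fatty acids, the coactivator PPARGC1A (-0.79) and the dehydrogenase HADH (-0.60, adjusted p 0.071 without siINO80#1 replicate A), while another fatty acid ligase, ACSL5, was higher (0.50).

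Of 14 genes of gluconeogenesis and glycogen 5 were lower, also without siINO80#2 replicate C (median -0.38, 3 without siINO80#1 replicate A and 3 without its replicate C). The glucose transporter SLC2A2 differed by -1.02, the glucose-6-phosphate transporter SLC37A4 by -1.003 and the mitochondrial PEP carboxykinase PCK2 by -0.76. In the urea cycle and amino acid breakdown 8 of 23 were lower and 1 higher (median -0.37, 8 and 1 without siINO80#2 replicate C, 5 lower without siINO80#1 replicate A). Glutamate dehydrogenase GLUD1 differed by -1.10, sarcosine dehydrogenase SARDH by -0.85, the urea cycle lyase ASL by -0.68 (adjusted p 0.084 without siINO80#1 replicate B) and cystathionine synthase CBS by 0.39 (adjusted p 0.068 without siINO80#1 replicate A). In serine, one-carbon and amino acid synthesis 4 of 18 were lower, also without siINO80#2 replicate C (median -0.23), with SHMT1, which moves one-carbon units between serine and glycine, at -0.86, the serine phosphatase PSPH at -0.60 (adjusted p 0.088 without siINO80#1 replicate A) and the amino acid exchanger SLC7A5 at -0.39. SLC7A5 is a transporter and not an enzyme of synthesis, and only with it did this list reach 4 members called lower. The count of this list was 2 without siINO80#1 replicate A or C and 9 without siINO80#2 replicate B.

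Enzymes and carriers of drug and bile acid handling split. Of 22 cytochrome P450 enzymes 5 were lower and 1 higher (median -0.01, 3 and 1 without siINO80#2 replicate C, 2 lower without siINO80#1 replicate A or siINO80#2 replicate A, 3 without siINO80#1 replicate C). The leukotriene hydroxylase CYP4F3 (-0.76) and the sterol hydroxylase CYP27A1 (-0.68) were lower, as was the aromatase CYP19A1 (-0.58, adjusted p 0.15 without siINO80#1 replicate C), and CYP1A1, induced through the aryl hydrocarbon receptor, was higher (0.44, adjusted p 0.11 without siINO80#1 replicate C). Of 25 conjugation enzymes 7 were lower and 2 higher (median -0.14, 6 and 2 without siINO80#2 replicate C, 3 lower without siINO80#1 replicate A and 4 without its replicate C or siINO80#2 replicate A). SULT2A1, which sulfates steroids and bile acids, was at 481, 531 and 396 with siINO80#2, 1475, 1283 and 1454 with siINO80#1 and 4737 ± 734 with NTG. As for GPAM the 3 groups stood in steps without overlap, and the siRNAs differed by -1.59 (SE 0.13, adjusted p = 5.8e-05). The glutathione transferases GSTA1 (-0.89, adjusted p 0.067 without siINO80#1 replicate A) and MGST1 (-0.72) were lower and GSTM3 higher (0.31, adjusted p 0.089 without siINO80#1 replicate B). UGT1A1, which conjugates bilirubin, was higher by 1.51, but the UGT1A genes share their 3′ exons and this value is uncertain.

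Of 19 hepatic and bile acid transporters 5 were lower and 2 higher (median -0.27, 4 and 2 without siINO80#2 replicate C). Among the higher ones, ABCC4, a basolateral exporter, was at 0.33 (adjusted p 0.067 without siINO80#1 replicate A). The anion transporter SLC22A9 (-1.01), the exporter ABCC6 (-0.70) and the cation transporter SLC22A3 (-0.45) were lower. Of 26 genes of metal handling 7 were lower and 3 higher (median -0.15, 6 and 3 without siINO80#2 replicate C). The manganese exporter SLC30A10 differed by -1.38, hepcidin HAMP, the hormone that lowers iron export, by -1.08, and transferrin TF by -0.80 (adjusted p 0.12 without siINO80#1 replicate C), with overlapping groups. BMP6, the ligand that induces hepcidin, was higher by 1.02 (adjusted p 0.051 without siINO80#2 replicate A), as were the metallothioneins MT2A (0.57) and MT1E (0.34, adjusted p 0.058 without siINO80#1 replicate A).

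**Figure D4:**
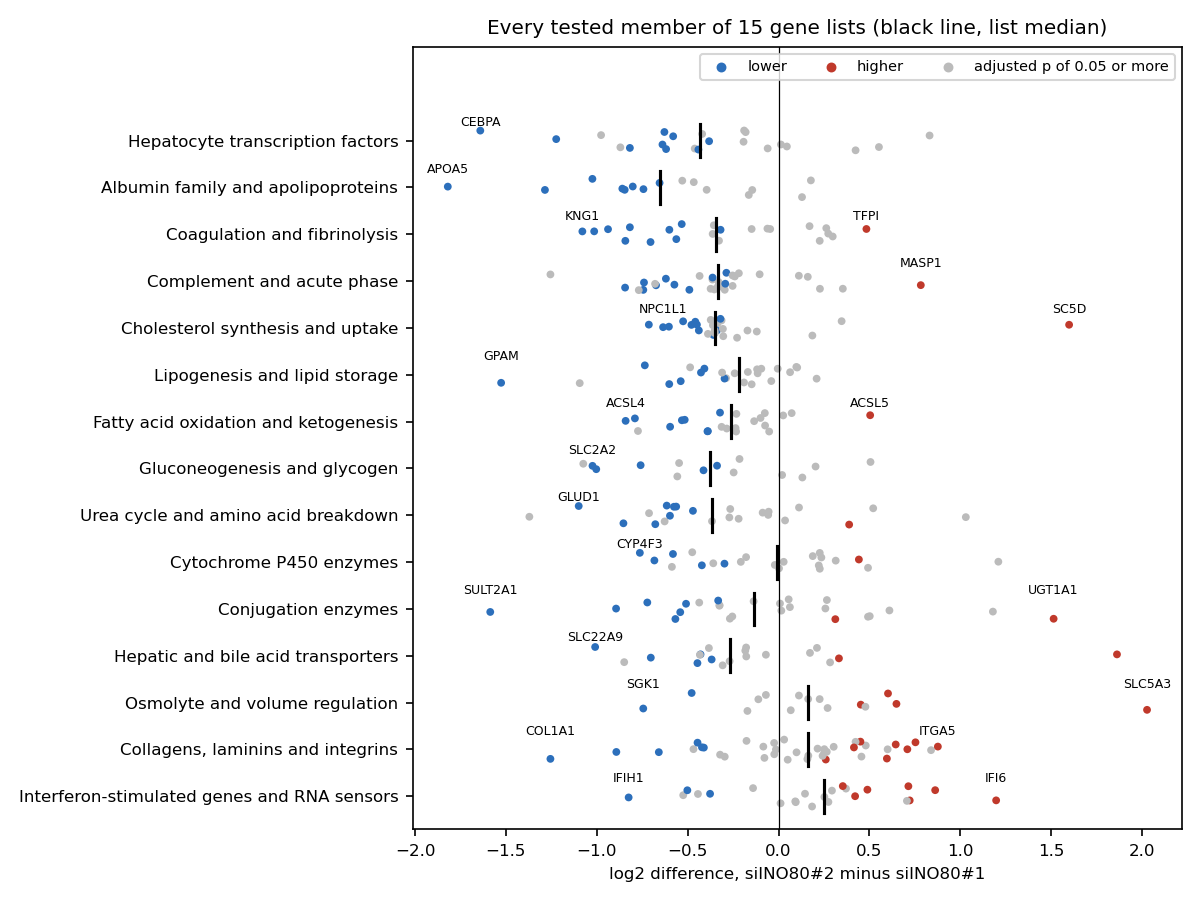
The log2 difference, siINO80#2 minus siINO80#1, of every tested member of 15 lists, most of them of liver function, coloured by call, with the median of each list as a line. The medians of hepatocyte transcription factors (-0.43) and of albumin and apolipoproteins (-0.65) lie below that over all genes (-0.01), while SC5D at 1.60 and UGT1A1 at 1.51 lie far above 0.

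The lower genes also held parts of the secretory and mitochondrial machinery. Of 35 genes of coat proteins and Golgi trafficking 14 were lower (median -0.18, 17 without siINO80#2 replicate C), 8 without siINO80#1 replicate A, 7 without its replicate C and 9 without siINO80#2 replicate A. The COPI subunit COPZ1 differed by -0.67, the cargo receptor TMED9 by -0.65 and the COPII GTPase SAR1B, which lipoprotein secretion needs, by -0.57. Of 25 genes of the integrated stress and unfolded protein responses 7 were lower and 1 higher (median -0.15, 6 and 1 without siINO80#2 replicate C, 4 lower without siINO80#1 replicate A or C), with the transcription factor XBP1 at -0.55, the chaperones DNAJC3 at -0.51 and SDF2L1 at -0.74 (adjusted p 0.15 without siINO80#1 replicate B), and the lectin chaperone CANX at 0.30 (adjusted p 0.079 without siINO80#1 replicate B). Of 76 mitochondrial ribosomal proteins 15 were lower and 3 higher (median -0.14, 14 and 5 without siINO80#2 replicate C). MRPS12 (-0.94, adjusted p 0.061 without siINO80#1 replicate B), MRPL1 (-0.73) and MRPL22 (-0.65) led the lower ones, and besides MRPS6 the higher ones were MRPL33 (0.62), which overlaps BABAM2 on the same strand, and MRPL45 (0.35).

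2 lists of signaling targets held members called lower. Of 19 Wnt and beta-catenin targets, a pathway that HepG2 cells activate through a truncated beta-catenin, 5 were lower and 1 higher (median -0.11, 6 and 1 without siINO80#2 replicate C). The Wnt deacylase NOTUM differed by -1.08, the transcription factor SP5 by -1.03 and the Wnt inhibitor DKK1 by -0.79, while the receptor ligase RNF43 was at 0.30 (adjusted p 0.083 without siINO80#1 replicate A). Of 21 targets of the Hippo effectors YAP and TEAD 5 were lower and 4 higher (median -0.09), the same numbers without siINO80#2 replicate C. The matrix protein CTGF (-0.92), the receptor AXL (-0.63, adjusted p 0.075 without siINO80#1 replicate B) and the adaptor AJUBA (-0.58, adjusted p 0.061 without siINO80#1 replicate B) were lower. The ectonucleotidase NT5E (0.76) and WWTR1, the YAP paralog TAZ (0.46), were higher, and so was the junction protein AMOTL1 (1.17, adjusted p 0.062 without siINO80#1 replicate C). WWTR1 is itself a Hippo effector, and only with it did the list reach 4 members called higher. Without siINO80#1 replicate A 2 were lower and 2 higher, without its replicate B 3 were lower, and without its replicate C or siINO80#2 replicate A 2 were higher.

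Among the lists described with their members, 8 passed the rule for a share called higher. That rule was at least 4 members called, at 1.5 times the 9.48% over all genes. Their shares called higher ran from 15.6% for motors to 30.4% for interferon-stimulated genes. Passing it does not make a list higher as a whole. Motors had more members lower (6) than higher (5), and so did YAP targets (5 and 4). Of 23 interferon-stimulated genes and RNA sensors 7 were higher and 3 lower (median 0.25), the same numbers without siINO80#2 replicate C. IFI6 was at 171, 194 and 173 with siINO80#2 and 77.5, 68.4 and 87.5 with siINO80#1, the latter near the NTG mean of 62.6 ± 5.64. The groups did not overlap (1.20, SE 0.14, adjusted p = 0.00047). ISG20, an RNA exonuclease, was higher by 0.72 and OAS2, a synthetase activated by double stranded RNA, by 0.86 (adjusted p 0.094 without siINO80#1 replicate A). IFIH1, the double stranded RNA sensor MDA5, was lower (-0.82), as were the interferon signaling factor STAT2 (-0.50) and IRF1 (-0.38, adjusted p 0.11 without siINO80#1 replicate C). Of 13 genes of the RNA interference machinery 2 were called, the GW182 scaffold proteins TNRC6C (0.32, adjusted p 0.12 without siINO80#1 replicate C) and TNRC6B (0.28, adjusted p 0.15 without siINO80#1 replicate B). Neither was called without siINO80#2 replicate C, where 1 other member was called lower.

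Of 15 genes of osmolyte and volume regulation 4 were higher and 2 lower (median 0.16, 4 and 3 without siINO80#2 replicate C). Besides SLC5A3 the taurine importer SLC6A6 (0.65) and the sodium, potassium and chloride cotransporter SLC12A2 (0.60) were higher, while the kinase SGK1 (-0.74) and the chaperone HSPA4L (-0.48) were lower. Of 39 collagens, laminins and integrins 8 were higher and 6 lower (median 0.16, 7 and 5 without siINO80#2 replicate C). The integrin subunits ITGA5 (0.88) and ITGA3 (0.75) were higher along with ITGA2. The collagen chain COL1A1 (-1.26), the proteoglycan SDC2 (-0.89) and the laminin chain LAMA5 (-0.66) were lower.

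Among 29 genes of lysosome and autophagy 5 were higher and 3 lower (median -0.04, 6 and 4 without siINO80#2 replicate C, 3 higher without siINO80#1 replicate A). The autophagy kinase ULK1 was higher by 0.72 and the cargo receptor SQSTM1 by 0.68, and TFEB, the transcription factor of lysosome genes, was lower (-0.63). Of 32 dynein, kinesin and actin motor genes 5 were higher and 6 lower (median 0.08, 7 and 6 without siINO80#2 replicate C), with the dynein light chain DYNLT3 at 0.68, MYO5B at 0.48 (adjusted p 0.068 without siINO80#1 replicate A) and MYO5A at 0.38 (adjusted p 0.060 without siINO80#1 replicate A) opposite to DYNLL2. The higher count was 2 without siINO80#1 replicate A or B and 3 without its replicate C or siINO80#2 replicate A. Of 23 genes of the IGF axis and oncofetal liver 4 were higher and 2 lower (median 0.02, 3 and 2 without siINO80#2 replicate C), with the transcription factor SOX4 at 0.91 and the IGF binding protein IGFBP6 at 0.75, and 2 were higher without siINO80#1 replicate A or C or without NTG replicate A. Of 29 apoptosis regulators 5 were higher (median 0.06, 6 without siINO80#2 replicate C), among them the BH3-only proteins PMAIP1 (0.77) and BID (0.46) and the caspase CASP8 (0.31, adjusted p 0.073 without siINO80#1 replicate B). That count was 2 without siINO80#1 replicate B or C or siINO80#2 replicate A, and 3 without siINO80#1 replicate A or any 1 NTG library.

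**Figure D5:**
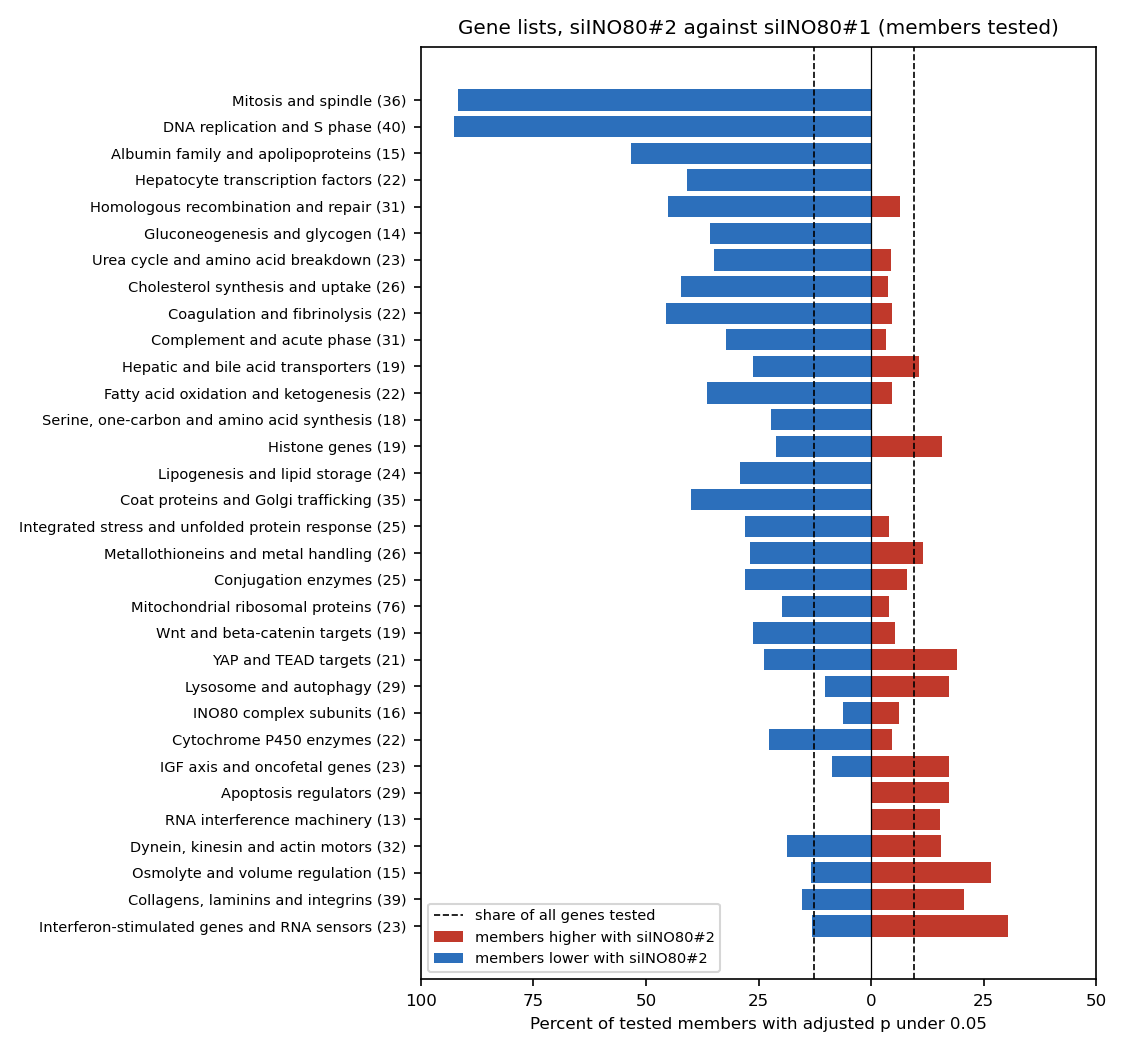
The share of tested members called lower (left) and higher (right) with siINO80#2, in percent, for 32 gene lists, with the shares over all genes, 12.6% and 9.48%, as dashed lines. The bars of replication and of mitosis reach furthest to the left.

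19 further lists had no direction in which at least 4 members were called at 1.5 times the share over all genes, or held other cell markers already given. Glycolysis and hypoxia response had 3 higher and 1 lower of 28 (median -0.06), with NDRG1 and the hexokinase HK1 (1.08) among the higher. The targets of NRF2 had 2 and 3 of 19 (0.02), heat shock and chaperone genes 3 and 2 of 24 (-0.09), with CRYAB at 1.47 and DNAJB1 at -0.90, and p53 targets 1 and 1 of 24 (0.08). Chromatin remodelers outside the INO80 complex had 2 and 2 of 19 (0.10), with SMARCC2 at 0.87 and the lymphoid helicase HELLS at -0.92, and Polycomb and acetyltransferase genes 3 and 2 of 19 (-0.08). In the latter EZH2 (-0.43) and SUZ12 (-0.40), 2 core subunits of Polycomb repressive complex 2, were lower and RBBP4 (0.45) was higher.

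Splicing factors had 1 higher and 6 lower of 34 (-0.16), proteasome subunits 1 and 5 of 42 (-0.08) and MHC class I presentation 1 and 1 of 14 (-0.03). Immediate early and ERK feedback genes had 3 and 1 of 29 (0.17), TGF-beta, BMP and Notch signaling 4 and 3 of 30 (-0.04), epithelial and mesenchymal markers 3 and 3 of 21 (-0.08) and neuroendocrine and neuronal genes 1 and 1 of 9 (0.17). Nuclear genes of oxidative phosphorylation had 2 and 14 of 75 (-0.18), 7 and 13 without siINO80#2 replicate C.

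Cytosolic ribosomal proteins had 2 higher and 5 lower of 79 (-0.18), 9 and 6 without siINO80#2 replicate C, in which their summed counts were lowest. These sums were 550532, 566771 and 405559 with siINO80#2 and 557840.0, 562805 and 515925 with siINO80#1. RPS25 stood out at 6696, 6497 and 7103 with siINO80#2 and 3611, 3388 and 3185 with siINO80#1 (NTG 6882 ± 193). It was the siINO80#1 group that lay away from NTG (0.996, SE 0.07, adjusted p = 2.5e-05), and pseudogene copies make such genes uncertain. Of the 13 mitochondrially encoded mRNAs 0 were called by limma, 0 at an unadjusted p under 0.05 and 0 by edgeR or DESeq2, with a median of 0.42 that was 0.02 without siINO80#2 replicate C.

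Genes named ZNF, mostly zinc finger transcription factors and looked at only after 3 of them stood among the largest differences, were called higher more often than lower. Of 471, 73 were higher (15.5%) and 19 lower (4.03%), with a median of 0.12 and 65 and 15 without siINO80#2 replicate C. On chromosome 19, where many of them lie in clusters, 39 of 235 were higher (16.6%) and 8 lower (3.40%), and on the other chromosomes 34 of 236 (14.4%) and 11 (4.66%), a difference that was not tested. The other genes of chromosome 19 had 44 of 792 higher (5.56%) and 84 lower (10.6%). By the longest GENCODE transcript of each gene, the median length was 4455 bases for genes called higher, 3768.5 for those lower and 3765 for those not called.

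In the second experiment, which shares no library with this one, MCRS1, another subunit of the INO80 complex, was targeted in cells in DMSO, and siMCRS1 was compared with NTG (3 and 2 libraries). The limma fit also held the EPZ-6438 libraries, which entered the estimate of the spread and the filter on low values. With siMCRS1 3307 genes were higher (23.1% of those tested) and 3523 lower (24.6%). Across the 13534 genes tested in both, the 2 sets of differences had a Pearson r of 0.22 and a Spearman rho of 0.24, as a description over genes, which are not independent replicates, and r was 0.19 without siINO80#2 replicate C. Of the replication genes 31 of 40 were lower with siMCRS1 and of the mitosis genes 14 of 36, with 4 higher. Hepatocyte transcription factors had 12 lower and 3 higher of 22, and coagulation genes 10 and 2 of 22. In 8 of the lists described with their members the larger count of calls was in the opposite direction with siMCRS1. They were coat and Golgi genes (17 of 35 higher and 2 lower), stress responses (11 of 25 and 0), Wnt targets (9 of 19 and 2), metal handling (7 of 26 and 3), motors (14 of 32 and 5), YAP targets (13 of 21 and 2) and histones (6 of 18 and 2), all with more higher than lower. Interferon-stimulated genes, with more higher than lower under siINO80#2, had 3 of 22 higher and 9 lower with siMCRS1. Between the 2 INO80 siRNAs the counts were near equal for motors (5 higher and 6 lower), YAP targets (4 and 5) and histones (3 and 4). Motors had 7 and 6 without siINO80#2 replicate C, and their median was above 0 in both experiments (0.08, and 0.24 with siMCRS1). These opposite directions were not tested. Osmolyte genes had 7 higher and 2 lower of 15.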

How the data were processed

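Stranded mRNA libraries were made from HepG2 cells with a Kapa kit. The authors deposited 1 table per experiment of normalized counts for 34825 gene symbols, a never-negative signal in which the counts of a library are divided by 1 size factor. The submitters' processing notes name kallisto, DESeq2 and GRCh38, without versions or roles, and the annotation and the use of strand are not given in the sources used here. Groups came from the sample labels. Dividing by the smallest step of each library returned whole numbers, within 0.01, for 100% of the values, and these were taken as reads.

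Values were tested as log2(value + 1) with limma 3.58.1 in R 4.3.3 (lmFit, then eBayes with a trend, NTG, siINO80#1 and siINO80#2 in 1 fit, 14034 genes with a mean of 10 or more), and p-values were adjusted by Benjamini-Hochberg over all of them. edgeR 4.0.16 (quasi-likelihood, TMM) and DESeq2 1.42.0 were run on the recovered reads as alternatives, next to other pseudocounts, filters, scalings, a replicate block, fits to fewer groups and fits without each library. The rescaling to equal totals of nuclear genes was chosen after seeing the data. The 3 tools were also run on simulated counts with known changes in a small part of the genes. The simulation gave all genes the same spread and held no deviating library, so it does not show how the tools perform on these data. Python 3.11.15, numpy 2.4.6, pandas 2.3.3, scipy 1.17.1 and matplotlib 3.10.9 made the tables and figures.

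The gene lists (51, with 1424 symbols) and the comparison itself were chosen with earlier results of these data known. Named were the INO80 complex subunits, the 15 largest log2 differences in each direction among called genes with a mean of at least 50 over the 6 libraries and no overlap, the 5 largest differences in mean normalized counts among the same genes, and up to 3 called members per list and direction, of which those of lists without a marked direction are given in part. A list was described with its members if at least 4 were called in a direction at 1.5 times the share over all genes, and the INO80 complex, RNA interference and interferon lists always. CDK1, HNF4A, APOB, MT-CO1, the uncalled cell cycle genes and the ZNF genes are named outside this rule, after their values were seen. A few genes that the rule would name are not reported here. Positions and promoters are from RefSeq on GRCh38.p14, matched by symbol. GENCODE transcript lengths were matched for over 98% of the called genes.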

Additional observations from a re-analysis of the deposited data

How the results depend on the processing

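INO80 stayed lower with siINO80#2 and past the threshold in every alternative run (-0.44 to -0.34). Of the 5338 values of the 243 named genes under the alternatives, 4874 kept their side of the threshold. Another 459 kept direction but missed it, 5 passed it anew and 0 were called in the reverse direction. Uncalled genes that changed sign, such as ACTR8 (-0.09 to 0.12) and MCRS1 (-0.18 to 0.09), are among the 4874. Most of the 243 were named because they were called in the main fit, so few reversals could occur. Leaving out 1 library gave 1948 to 3476 genes in all, 828 to 1463 higher and 1120 to 2013 lower, and the other alternatives 2363 to 3590. Members called lower ranged, on leaving out 1 library, from 4 to 13 for complement, 4 to 20 for cholesterol, 3 to 10 for lipogenesis, 5 to 9 for fatty acid oxidation, 3 to 7 for gluconeogenesis, 5 to 9 for the urea cycle, 2 to 9 for serine and one-carbon genes, 2 to 6 for cytochrome P450, 3 to 8 for conjugation, 4 to 7 for stress responses, 9 to 14 for recombination, 7 to 17 for coat proteins, 2 to 6 for YAP targets and 2 to 7 for histones. Members called higher ranged from 3 to 6 for lysosome genes, 2 to 7 for motors, 2 to 4 for YAP targets, 2 to 4 for the IGF axis and 2 to 6 for apoptosis regulators. With only the 6 siINO80 libraries in the fit, lower counts were 4 for lipogenesis, 2 for cytochrome P450, 8 for coat proteins and 2 for histones, and higher counts 2 for the IGF axis and 3 for apoptosis, with fewer samples behind the spread. Without a trend in eBayes they were 6 for complement, 3 for lipogenesis, 3 for cytochrome P450, 8 for coat proteins, 2 for histones, 2 for the IGF axis and 3 for apoptosis. Equal totals gave 3 for cytochrome P450 and 3 for apoptosis, and equal totals of nuclear genes, chosen after seeing the data, 2 for histones. The cause of these changes was not tested.

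Same-lettered siINO80#1 and siINO80#2 libraries had correlations of deviations of 0.13, 0.00 and 0.10, and unlike-lettered ones of -0.25 to 0.10. Among the latter, siINO80#1 replicate B was closer to siINO80#2 replicate A (0.10) than to its own letter. On these mixed values the main fit did not take the letters to pair the groups compared, and a shared effect of the letter was not tested. Of the NTG libraries that share the fit, same-lettered ones had 0.25, 0.26 and 0.14 with siINO80#1 and 0.09, -0.08 and 0.02 with siINO80#2. Unlike-lettered ones had -0.22 to -0.04 with siINO80#1 and -0.11 to 0.08 with siINO80#2. With the letter as a replicate block 3590 genes were called (1573 higher, 2017 lower), 3029 of them also called without it, and 7 histone genes were lower. Of the genes described, TF (adjusted p = 0.052) and TNRC6C (0.052) then missed the threshold and the INO80 complex subunits RUVBL1 (0.033) and INO80E (0.046) passed it. With 3 libraries a group, differences near the threshold depended on single libraries.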
